A study of Mus musculus with 2 samples.

Results

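The genes described here are 3 adenylyl cyclases (Adcy1, Adcy2 and Adcy5) and 7 gene entries for cyclic nucleotide phosphodiesterases (Pde1a, Pde1b, Pde2a, Gm45837, Pde4b, Pde4d and Pde10a). They were selected by name, with all of their transcript models, and all 10 of 10 were found among the 18595 annotated genes that had reads. Gm45837 is a separate annotated entry that overlaps Pde2a on the same strand. The genes were chosen with measured values of these libraries known, though no value or threshold is part of the rule, so their levels are given as a description, with no test. Adult mouse hippocampus was sequenced with long reads, which can each span a whole RNA molecule, and the deposited tables assign each read to a model defined by its introns. Start and end positions given below are those of the deposited models. The mice were of strain B6NCrl on the C57BL/6 background, 6 months old and described as male, with no genetic change or treatment labelled. The data form 1 group of 2 libraries, replicate 1 with 1330153 reads and replicate 2 with 1366252, so every comparison is of one library with the other. Biosample identifiers differ between the libraries but the donor identifier is shared, and the number of mice is not stated. Fisher's exact p-values set the difference between these libraries against read-counting error only, and that difference may be technical.

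Adenylyl cyclases are membrane enzymes that make cyclic AMP from ATP when receptors activate the stimulatory G protein. Phosphodiesterases break cyclic AMP, cyclic GMP or both, and their families differ in what switches them on. In hippocampal neurons the balance of the enzymes sets protein kinase A activity and is studied for its part in synaptic plasticity and memory. Many of these genes use several promoters and last exons, so a long read can show which first exon, coding region and RNA end occur in 1 molecule.

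The 10 genes held 1484 reads in 321 transcript models, 696 reads in replicate 1 and 788 in replicate 2, or 550 ± 37.8 CPM (counts scaled to 1000000 library reads, mean ± SD, n = 2). Pde2a with Gm45837 (457 reads) and Adcy1 (339) held the most, and Pde4d (44) and Pde10a (41) the fewest. What the reads covered differed greatly from gene to gene. Nearly all Adcy1 reads were single-exon reads placed in its 3′ UTR, while most Pde1b and Pde4b reads lay in models that spanned a whole annotated coding region. The large library differences of Pde2a and Gm45837 lay mostly in chains that had one gene name in replicate 1 and the other in replicate 2.

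Levels are counts of reads, with no correction for length, since a long read counts once whatever its length, and 1 read was worth 0.752 CPM in replicate 1 and 0.732 CPM in replicate 2. The joined Pde2a locus had 216 and 241 reads (162 and 176 CPM). Adcy1 followed with 151 and 188 reads (114 and 138 CPM), and Pde1a with 96 and 130 (72.2 and 95.2 CPM). Exact 95% counting intervals separated Adcy1 from Pde1a and Pde1a from Adcy2 in both libraries, and the locus from Adcy1 in replicate 1 only. The remaining genes lay close together. Adcy2 had 57 and 45 reads, Pde4b 56 and 45, Pde1b 36 and 60, and Adcy5 38 and 40. Pde4d had 24 and 20 reads and Pde10a 22 and 19. From Adcy2 downwards the interval of each gene overlapped that of its neighbour in the order in both libraries.

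Between libraries, the CPM intervals did not overlap for 2 of the 10 entries, Pde2a and Gm45837. In a Fisher's exact test of every gene with at least 10 reads, 5.95% of 11891 genes passed an adjusted p of 0.05 (Benjamini-Hochberg). That is an unlike measure. The share of all genes with CPM intervals apart, or with a ratio interval that excludes 1, was not computed. Nothing is read from the 2 entries against the 5.95%, since measured values were known when they were chosen. Pde1b was 1.62-fold higher in replicate 2 (95% counting interval 1.06 to 2.53) and Pde1a 1.32-fold higher (1.01 to 1.74). For Adcy1, Adcy2, Adcy5, Pde4b, Pde4d and Pde10a the interval of the library ratio included 1. The 10 genes together were 1.10-fold higher in replicate 2 (0.994 to 1.22), and the joined locus 1.09-fold (0.900 to 1.31).

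**Figure D1:**
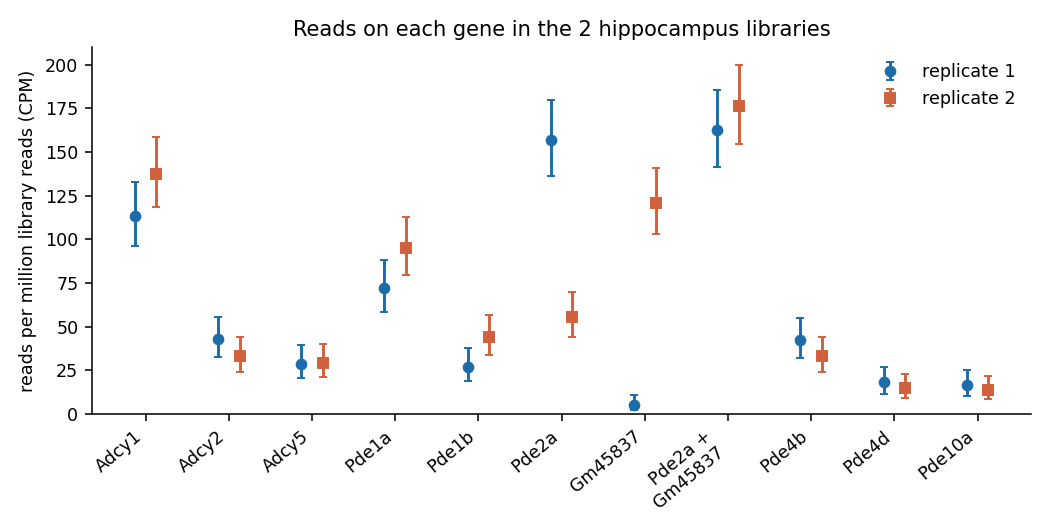
Level in CPM (y axis, linear) for each gene (x axis) in replicate 1 (circles) and replicate 2 (squares), with exact 95% counting intervals as bars. Pde2a lies at 157 and 55.6 CPM and Gm45837 at 5.26 and 121 CPM, while their sum lies at 162 and 176 CPM.

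Adcy1 encodes a cyclase that calcium and calmodulin stimulate, and it is a classic brain cyclase of learning studies. It lies at chr11:7063489-7178506 on the plus strand, and its annotated mRNA of 12259 bases ends in a long 3′ UTR. Of its reads, 150 of 151 in replicate 1 and 186 of 188 in replicate 2 were single-exon (99.3% and 98.9%), and all 336 were placed in the 3′ UTR. A replicate 2 model of 24 of these reads, from 7169413 to 7174299, also takes in the last coding bases, which end at 7169712. The leading model ran from 7174293 to 7178043 with 132 reads in replicate 1 and from 7174299 to 7178038 with 153 in replicate 2. The only chain found in both libraries was a piece of 9 exons from the annotated start, with 1 read in each. No read spanned the coding region, which allows a share of up to 2.41% and 1.94% of the gene's reads (upper exact 95% limits). The Adcy1 level is therefore mainly a count of 3′ UTR reads, which do not show how the coding exons of their RNA were joined.

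The end at 7178038 to 7178043 held 87.4% and 81.4% of Adcy1 reads and lay upstream of the annotated end at 7178506, which held 4 and 10 reads. In the 40 bases before the leading end there was neither AATAAA nor ATTAAA, the main poly(A) signals, searched on the transcript strand. The 20 bases after it in the annotated transcript held 15 A. Windows of 20 bases with at least 15 A made up 0.113% of all such windows in annotated protein-coding transcripts. The end of second most reads, at 7174293 to 7174299 with 8 and 24 reads, had AATAAA 17 bases before 7174299 and 3 A in the 20 bases after it. The annotated Adcy1 end had AATAAA 22 bases before it. Of 58791 annotated protein-coding ends, 48.7% had either signal within 40 bases. Single-exon models met end to start at 7174293 and 7178043 in replicate 1 and at 7174299 and 7178038 in replicate 2. These ends are thus boundaries that models share, and where each read ended was not tested. Whether reads were primed within the A-rich stretch was not tested.

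Adcy2 encodes a cyclase that G protein beta-gamma subunits stimulate, and it lies at chr13:68620043-68999541 on the minus strand. Its reads formed a ladder of spliced chains that shared the 3′ end and reached different distances towards the start. The chains of most reads had 6 exons (7 and 5 reads), 7 exons (3 and 6) and 8 exons (2 and 5), all incomplete matches to the annotated transcript. The annotated end at 68620043, with ATTAAA 29 bases before it, held 43 of 57 reads (75.4%) and 40 of 45 (88.9%). The whole coding region was spanned by 3 and 2 reads (5.26% and 4.44%). Single-exon reads were 10 of 57 in replicate 1 and 2 of 45 in replicate 2, a difference that did not pass the test below (adjusted p = 0.767, Fisher's exact test). A single-exon 3′ model of 8 reads, at 68619489 to 68620872, was in replicate 1 only.

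Adcy5, a cyclase that calcium inhibits and that is best known in the striatum, lies at chr16:35154877-35305738 on the plus strand. The complete annotated chain of 21 exons and 7008 bases had 2 and 4 reads and spanned the whole coding region in these reads. A chain of 16 exons whose first splice donor is also that of Adcy5-202, a retained-intron transcript of 2 exons, had 1 and 4 reads. A chain of 4 exons had 0 and 5. Both are incomplete matches, so reads cut short in a longer transcript cannot be told from reads that start there. Reads ended in 2 places in both libraries. The annotated end at 35305738, with ATTAAA 16 bases before it, held 22 of 38 reads (57.9%) and 20 of 40. An internal end at 35304386 to 35304547, with neither signal, held 15 (39.5%) and 19 (47.5%). All the reads of the internal end were spliced, whereas most at the annotated end were single-exon.

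Pde1a and Pde1b encode the calcium- and calmodulin-stimulated phosphodiesterases, which act on both cyclic AMP and cyclic GMP. Pde1a lies at chr2:79834453-80129458 on the minus strand, and none of its reads matched a complete annotated transcript. A single chain of 14 exons led in both libraries, with 37 and 51 reads. Chains of 3 exons (5 and 6 reads) and of 2 exons (5 and 5) shared its 3′ end, and a chain of 10 exons had 3 and 7 reads. The leading chain begins in the first exon of Pde1a-208, a model whose 5′ end the annotation marks as incomplete. The chain is an incomplete match with more exons than Pde1a-208, which has 12. The donor of this exon therefore also lies inside a longer annotated transcript, and reads cut short there cannot be told from reads that start there. This exon, with its splice donor at 79927675, began 43 of 79 spliced reads (54.4%, 42.8 to 65.7%) and 62 of 105 (59.05%, 49.0 to 68.6%). The first ATG of the chain's reading frame lay in its second exon at 79906075, with 441 codons from there. The same ATG is the start codon of the annotated Pde1a-201, which has 420 codons. No stop codon preceded it in frame, and the model may begin short of the RNA's start, so the frame is the one these models hold. The frame ends at the stop codon of the longer forms Pde1a-204 to Pde1a-206, which have 545 codons, and 2 and 6 reads spanned the coding region of Pde1a-201.

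Pde1a also held the 3 unannotated spliced chains that had at least 2 reads in each library. A chain of 14 exons (2 and 5 reads) used an acceptor 3 bases further in after the first intron, leaving out the bases AAG. Over all Pde1a reads across this intron, 2 and 6 left them out and 44 and 60 kept them. A chain of 15 exons (3 and 2 reads) began in the first exon of the noncoding Pde1a-209 and combined annotated introns in an unannotated way. A chain of 13 exons (2 and 3 reads) joined the first exon of Pde1a-208 to the last exon at 79859232, which ends at 79859025.

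Ends of Pde1a fell mainly in 1 last exon. The distal end at 79834453 to 79834462, with AATAAA 24 bases before it, held 57 of 96 reads (59.4%) and 92 of 130 (70.8%). The proximal end at 79836555, also annotated, held 30 (31.2%) and 26 (20.0%). It had neither signal in the 40 bases before it, and 16 of the 20 bases after it were A. Intervals of the libraries overlapped for both ends.

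Pde1b, at chr15:103503034-103530052 on the plus strand, had the most complete reads along with Pde4b. The annotated Pde1b-201, with 16 exons, was the leading model with 16 of 36 and 25 of 60 reads. The whole coding region was spanned by 20 of 36 reads (55.6%, 38.1 to 72.1%) and 33 of 60 (55.0%, 41.6 to 67.9%). These counts take the deposited model starts as given. They include the chain of 15 exons below (4 and 7 reads), whose first exon holds the start codon. The first exon of Pde1b-201 began 18 of 30 and 26 of 50 spliced reads, and that of Pde1b-203 began 4 and 7. A chain of 15 exons from the Pde1b-203 exon had 4 and 7 reads, and a chain of 2 exons at the 3′ end 1 and 4. The chain of 15 exons is an incomplete match with more exons than Pde1b-203, which has 5. Reads cut short there in a longer transcript cannot be told from reads that start there. Nearly all reads ended at 103530051 to 103530052 (35 of 36 and 60 of 60), with AATAAA 13 bases before.

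Pde2a encodes the phosphodiesterase that cyclic GMP stimulates through its GAF domains and that breaks cyclic AMP, so it links both messengers. The gene lies at chr7:101421691-101512827 on the plus strand. Gm45837, at chr7:101410886-101512819, is annotated with 1 transcript of 32 exons, and 30 of its 31 introns are also introns of Pde2a transcripts. Pde2a had 209 reads in replicate 1 and 76 in replicate 2, a 2.82-fold ratio (2.16 to 3.72). Gm45837 had 7 and 165 reads, 22.95-fold higher in replicate 2 (10.9 to 58.0). The entries thus moved in opposite directions, and their sum differed little.

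The reads behind the difference were of the same structures. Of the spliced chains, 20 were named Pde2a in replicate 1 and Gm45837 in replicate 2, holding 135 and 149 reads, which were 78.9% of the spliced Pde2a reads of replicate 1 and 90.3% of the Gm45837 reads of replicate 2. In these chains no read had the other name in either library. The leading chain of 30 exons had 54 reads in replicate 1, all named Pde2a, and 72 in replicate 2, all named Gm45837. Over all spliced reads of the locus, 96.1% were named Pde2a in replicate 1 and 18.3% in replicate 2. No Gm45837 read in either library reached that entry's own first exon (101410886 to 101411069) or held the 1 intron that only it has (0 of 172, upper exact 95% limit 2.12%).

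**Figure D2:**
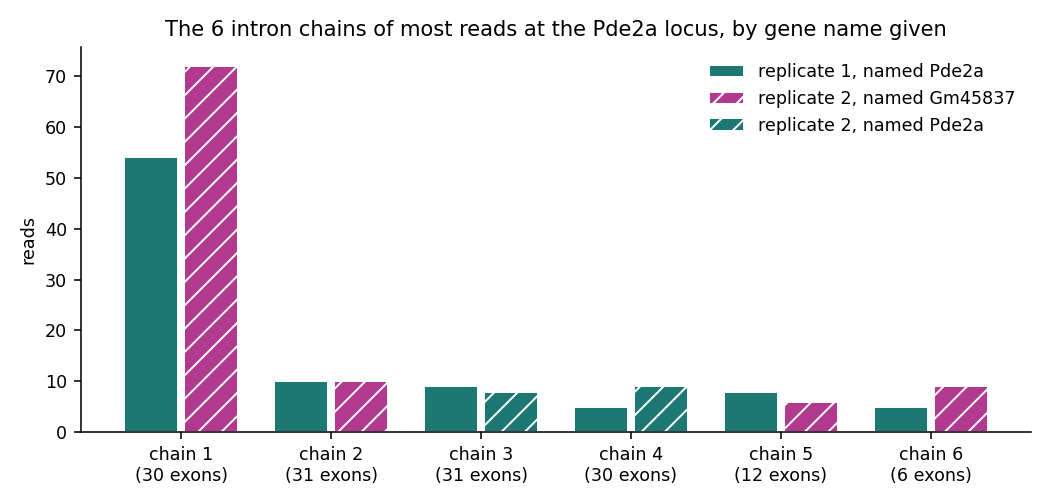
Reads (y axis) of the 6 intron chains of most reads at the Pde2a locus (x axis), in replicate 1 (plain bars) and replicate 2 (hatched bars), coloured by the gene name given in the deposited tables. Chain 1 has 54 reads named Pde2a and 72 named Gm45837, and chains 3 and 4 are named Pde2a in both libraries.

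The read structure of Pde2a moved with the naming. Single-exon reads were 38 of 209 Pde2a reads in replicate 1 (18.2%) and 39 of 76 in replicate 2 (51.3%), which passed the Fisher's exact test over all genes (adjusted p = 3.29e-05). With the entries joined as 1 locus, they were 38 of 216 (17.6%) and 39 of 241 (16.2%), and the difference did not pass (adjusted p = 1.000, Fisher's exact test). All 77 were placed in the 3′ UTR, although their models begin at 101511456, before the last coding base at 101511660. The end at 101512814 to 101512827, with AATAAA 13 bases before it, held 205 of 216 reads (94.9%) and 233 of 241 (96.7%), and the end of Pde2a-212 at 101512524 held 9 and 8.

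At the 5′ end of the locus, spliced reads most often began in an exon that no annotated coding transcript has as its first. The splice donor at 101451468 began 73 of 178 spliced reads (41.0%, 33.7 to 48.6%) and 96 of 202 (47.5%, 40.5 to 54.7%). In GENCODE M21 this donor ends the first exon of Pde2a-205 only, a retained-intron transcript of 2 exons that starts at 101451316. The leading chain from it has 30 exons and is an incomplete match, so the donor also lies inside a longer annotated transcript. Reads cut short there cannot be told from reads that start there. The first exon of the coding Pde2a-201, Pde2a-202 and Pde2a-212, with its donor at 101421995, began 13 (7.30%) and 12 (5.94%). None of the 6 first exons of next most reads held over 10 reads in a library.

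RefSeq, on GRCm38.p6, places a start at 101451252, just before the first exon of the largest share of reads, and another at 101421691. The windows from 250 bases before to 50 after these starts are shown because they lie at the starts of the major and the minor first exon. Capitals mark GGGCGG, the core of GC boxes, on either strand. The full set searched on both strands also held the TATA box as TATAAA, the CAAT box as CCAAT, the cyclic AMP response element as TGACGTCA, and its shorter form as TGACG, which lies inside the full element.
Pde2a, major first exon, chr7:101451002-101451301, plus strand: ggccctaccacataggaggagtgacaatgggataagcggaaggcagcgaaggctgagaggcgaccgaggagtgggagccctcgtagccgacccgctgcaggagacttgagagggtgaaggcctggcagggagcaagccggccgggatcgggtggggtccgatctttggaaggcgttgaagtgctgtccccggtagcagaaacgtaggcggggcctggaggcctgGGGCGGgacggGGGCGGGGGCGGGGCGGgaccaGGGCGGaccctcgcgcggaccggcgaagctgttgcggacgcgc
Pde2a, minor first exon, chr7:101421441-101421740, plus strand: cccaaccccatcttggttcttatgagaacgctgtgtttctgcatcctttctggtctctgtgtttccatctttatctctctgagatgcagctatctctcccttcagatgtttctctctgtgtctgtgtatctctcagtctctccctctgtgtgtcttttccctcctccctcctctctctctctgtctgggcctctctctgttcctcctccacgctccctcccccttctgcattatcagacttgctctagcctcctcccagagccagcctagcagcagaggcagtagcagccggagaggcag

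The major window had 69.7% G and C and a CpG observed over expected ratio of 0.876, against 53.3% and 0.159 in the minor window. Medians over all 32851 RefSeq promoter windows were 52.7% and 0.384. GGGCGG occurred in 35.7% of all windows, and in the major but not the minor window. None of the 22 windows of these genes (9 of 10 genes matched, all but Gm45837) held the full cyclic AMP response element TGACGTCA, which 1.79% of all windows held. These letters are a description of the windows and name no factor at work.

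The leading chain of 30 exons had an open reading frame of 928 codons that began in the major first exon at 101451352 and used the annotated Pde2a stop codon, with no stop before it in frame within the model, against 935 codons in Pde2a-212, 939 in Pde2a-201, 945 in Pde2a-204 and 961 in Gm45837-201. The frame of 928 codons rests on the deposited model start, which is not taken as a read start. The first 60 coding bases are shown because they differ between the first exons, with the start codon in capitals.
Leading chain, from 101451352: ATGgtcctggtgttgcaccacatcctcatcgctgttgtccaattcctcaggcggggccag
Pde2a-201, from 101421925: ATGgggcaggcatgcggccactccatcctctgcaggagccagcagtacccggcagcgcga
Pde2a-204, from 101450628: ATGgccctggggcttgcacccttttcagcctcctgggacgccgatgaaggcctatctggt
Gm45837-201, from 101410983: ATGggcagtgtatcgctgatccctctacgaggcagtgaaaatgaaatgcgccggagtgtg

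Within the chains, several choices of splicing recurred in both libraries. The rarest was an exon of 40 bases at 101503824 to 101503863, skipped in 2 and 1 reads and included in 112 and 140. An exon of 62 bases at 101461480 to 101461541, which is not a multiple of 3, was included in 17 of 92 spanning reads (18.5%, 11.2 to 27.9%) and 17 of 115 (14.8%, 8.85 to 22.6%). It is annotated in Gm45837-201, in the nonsense-mediated decay transcripts Pde2a-206 and Pde2a-209, and in the noncoding Pde2a-207 and Pde2a-210. The chain of most reads with this exon, of 31 exons and 10 reads in each library, had a frame of 916 codons to the same stop from another ATG in the major first exon, at 101451450. The exon's sequence is shown because its length sets which of the start codons is in frame with the stop.
Pde2a 62-base exon: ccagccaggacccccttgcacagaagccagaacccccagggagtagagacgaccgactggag

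The other choice was between acceptors 12 bases apart. The longer form kept the bases CCCGACTTCCAG at 101503287 to 101503298 in 12 and 18 reads. The shorter form had 101 and 121 reads (89.4% and 87.1%). The chain that differs from the leading chain by these bases had 5 and 9 reads, a frame of 932 codons, and the name Pde2a in both libraries. The complete annotated chain of Pde2a-212 had 9 and 8 reads.

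**Figure D3:**
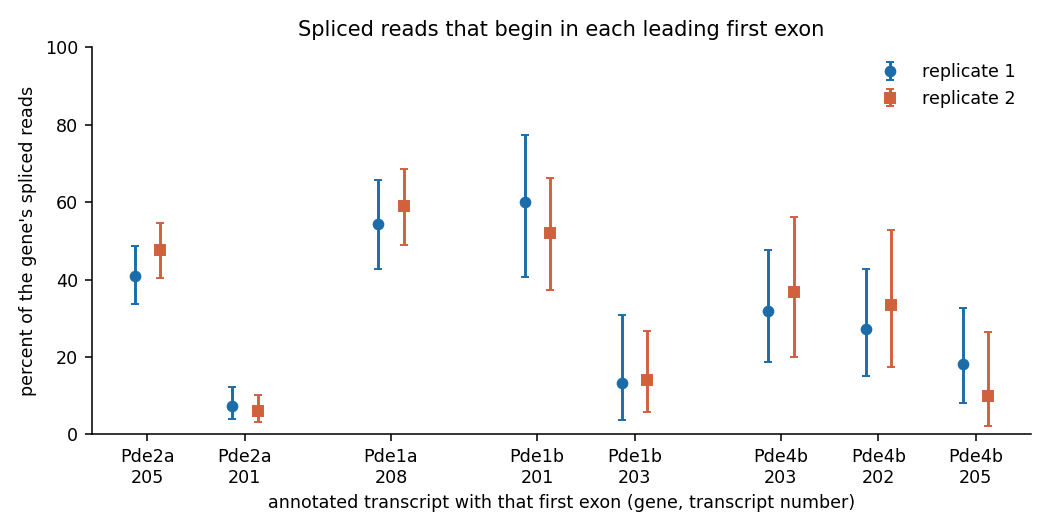
Percent of a gene's spliced reads (y axis) that begin in each leading annotated first exon (x axis, labelled by 1 annotated transcript that has it), in replicate 1 (circles) and replicate 2 (squares) with exact 95% intervals. The exon of Pde2a-205 lies at 41.0% and 47.5% and that of Pde2a-201 at 7.30% and 5.94%, and the intervals of the libraries overlap for every exon shown. Reads are placed by splice donor, so reads cut short in an inner exon with the same donor are included.

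Pde4b and Pde4d encode phosphodiesterases specific for cyclic AMP, the family that rolipram inhibits, and each makes long and short enzymes from alternative promoters. Pde4b lies at chr4:102087543-102607259 on the plus strand. The whole coding region of some annotated transcript was spanned by 37 of 56 reads (66.1%, 52.2 to 78.2%) and 27 of 45 (44.3 to 74.3%). The 3 leading chains were complete annotated transcripts with different first exons. Pde4b-203 had 14 and 11 reads, Pde4b-202 had 12 and 10, and Pde4b-205 had 7 and 2. The intervals of the first exons of Pde4b-203 and Pde4b-202 overlapped in both libraries, so their order is not resolved. A first exon that Pde4b-206 and Pde4b-207 share began 1 read in each library.

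The 3 forms differ in the start of the protein, with 564 codons in Pde4b-203, 503 in Pde4b-202 and 659 in Pde4b-205. Their first 60 coding bases are shown for that reason, with the start codon in capitals.
Pde4b-203, from 102570648: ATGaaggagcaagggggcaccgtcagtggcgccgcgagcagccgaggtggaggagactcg
Pde4b-202, from 102590154: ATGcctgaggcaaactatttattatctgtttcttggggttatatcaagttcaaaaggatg
Pde4b-205, from 102421771: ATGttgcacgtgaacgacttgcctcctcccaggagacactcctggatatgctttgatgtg

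The RefSeq window at the start of each of the 3 first exons is shown to compare promoters within 1 gene. Each window runs into its GENCODE exon, which starts at 102570095, 102589723 and 102421518. Capitals mark the motifs named after the sequences, on either strand.
Pde4b-203 first exon, chr4:102569810-102570109, plus strand: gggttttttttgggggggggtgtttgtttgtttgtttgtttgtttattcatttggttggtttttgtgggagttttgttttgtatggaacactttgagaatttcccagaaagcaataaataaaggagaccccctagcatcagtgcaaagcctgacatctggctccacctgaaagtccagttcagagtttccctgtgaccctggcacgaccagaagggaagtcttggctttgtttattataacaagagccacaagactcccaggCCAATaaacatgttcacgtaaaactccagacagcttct
Pde4b-202 first exon, chr4:102589593-102589892, plus strand: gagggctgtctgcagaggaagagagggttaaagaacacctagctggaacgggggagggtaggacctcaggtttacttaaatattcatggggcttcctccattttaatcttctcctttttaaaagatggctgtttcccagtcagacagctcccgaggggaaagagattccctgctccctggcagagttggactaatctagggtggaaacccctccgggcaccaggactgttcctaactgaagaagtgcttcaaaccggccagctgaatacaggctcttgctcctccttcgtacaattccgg
Pde4b-205 first exon, chr4:102421305-102421604, plus strand: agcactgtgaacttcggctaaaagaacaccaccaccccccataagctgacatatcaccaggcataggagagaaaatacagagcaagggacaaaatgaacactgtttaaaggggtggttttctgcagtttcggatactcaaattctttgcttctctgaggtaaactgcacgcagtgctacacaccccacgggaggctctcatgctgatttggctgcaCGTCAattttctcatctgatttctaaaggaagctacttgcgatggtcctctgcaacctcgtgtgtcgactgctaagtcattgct

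The windows had 43.3%, 51.3% and 47.0% G and C and CpG ratios of 0.144, 0.304 and 0.485. The first held CCAAT, which 37.4% of all windows held, and the third held TGACG, which 20.8% held. The second held none of the motifs searched. Ends of Pde4b fell mainly at 102605833 to 102605861, with 41 of 56 reads (73.2%) and 31 of 45 (68.9%). There was no AATAAA or ATTAAA in the 40 bases before 102605833, and 18 of the next 20 bases were A. The most distal annotated end, at 102607259, held 6 and 4 reads.

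Pde4d, at chr13:108449948-109953461 on the plus strand, spans the most bases of the 10 genes. Its reads were single-exon in 21 of 24 and 19 of 20. The annotated Pde4d-203, of 10 exons, had 1 read in each library, and the other spliced chains of the gene, of 12 and of 2 exons, had 1 read in replicate 1 only. The leading 3′ model ended at 109954243 in replicate 1 (11 reads) and at 109954240 in replicate 2 (9 reads), beyond the annotated gene end at 109953461. A second single-exon model recurred inside an intron, at 109440999 to 109441416 in replicate 1 (7 reads) and 109441026 to 109441413 in replicate 2 (8 reads). It lay 767 bases before the annotated start of Pde4d-205, and GENCODE M21 places no gene other than Pde4d there.

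Pde10a encodes a phosphodiesterase of both messengers that is known chiefly from striatal neurons, and it lies at chr17:8525372-8986648 on the plus strand. The complete annotated Pde10a-202, of 22 exons and 7769 bases, had 1 and 2 reads. Its first exon began 1 of 5 and 5 of 8 spliced reads. Most of the reads were single-exon, 17 of 22 (77.3%) and 11 of 19 (57.9%), and of these 15 and 11 lay in the 3′ UTR. The end at 8986645 to 8986648 held 14 (63.6%) and 12 (63.2%) reads, and an end at 8982367 to 8982400, with AATAAA 19 bases before 8982400, held 4 (18.2%) and 5 (26.3%).

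Across the genes, single-exon reads made up 287 of 696 (41.2%, 37.6 to 45.0%) in replicate 1 and 321 of 788 (40.7%, 37.3 to 44.3%) in replicate 2. Adcy1 gave 150 and 186 of them. The median share over 7092 genes, those with 20 reads or more in both libraries, was 7.35% and 5.88%. That median counts each gene once, whereas the shares above pool reads, so they are unlike measures. With the Pde2a locus joined, shares by gene ran from 16.7% (Pde1b) to 99.3% (Adcy1) in replicate 1. In replicate 2 they ran from 4.44% (Adcy2) to 98.9% (Adcy1). Of the single-exon reads, 93.0% and 93.5% were placed in a 3′ UTR, where some models also hold the last coding bases, and 19 and 21 reads lay in introns. By the deposited model boundaries, a whole annotated coding region was spanned by 77 of 696 reads (11.1%, with Pde4b and Pde1b giving most) and 84 of 788 (10.7%). The single-exon share differed between the libraries for 1 of 8 genes tested, Pde2a, beside 1.40% of all genes tested, and for none once the locus was joined (2 entries were under the minimum of reads).

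**Figure D4:**
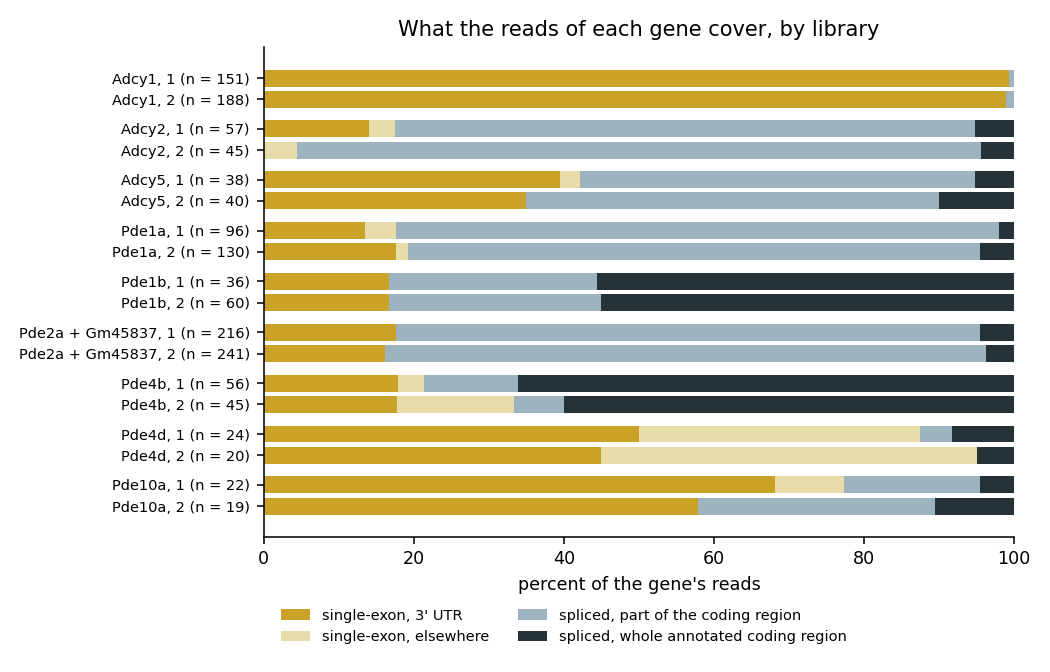
Percent of each gene's reads (x axis) in each library (rows, with the gene, the replicate number and the number of reads) that were single-exon and placed in a 3′ UTR, single-exon elsewhere, spliced over part of the coding region, or spliced over a whole annotated coding region. Adcy1 is single-exon in 99.3% and 98.9%, and Pde4b spans a whole coding region in 37 of 56 and 27 of 45 reads. Coverage is by the deposited model boundaries.

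Leading models, with genomic reads left out, were compared in 6 of the genes, and the share of the leading model differed for 2 of 6, Pde2a and Adcy5, beside 3.19% of 6262 genes tested. For Pde2a this was the single-exon model above. With the locus joined, the leading model was instead the chain of 30 exons, whose share did not pass (25.0% and 29.9%, adjusted p = 0.841, Fisher's exact test). For Adcy5 the leading model had 15 of 37 reads in replicate 1 (40.5%) and 0 of 26 in replicate 2 (upper exact 95% limit 13.2%, adjusted p = 0.00683, Fisher's exact test). A single-exon model with the same end, 35305738, had 14 reads in replicate 2 and was placed in the genomic class there, whereas in replicate 1 it was an incomplete match. Its first base was 35303613 in replicate 1 and 35303694 in replicate 2. In Pde1a the classes were the other way round: the single-exon model that ended at 79834454 was genomic in replicate 1 (13 reads) and an incomplete match in replicate 2 (22 reads). Thus in both genes the class of the single-exon model differed between libraries while its end was the same.

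Of 190 different intron chains over the genes, 74 were found in both libraries and held 338 of 409 and 390 of 467 spliced reads, and 94 had 1 read in all. Chains that match no annotated transcript even in part numbered 50, with 67 reads. Starts of spliced models that were not complete annotated transcripts lay exactly on an annotated exon boundary in 231 of 242 models. The deposited starts are therefore not taken as read starts, and first exons were read from splice donors. Ends of the same models lay exactly on an annotated boundary in 215 of 242. The ends given above are thus ends of deposited models, and where each read ended was not tested.

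The wider cyclic nucleotide pathway had 74 further genes in 5 lists, of which 64 had reads and 43 could be tested. Between the libraries 1 was higher in replicate 1 and 2 were higher in replicate 2 (Fisher's exact test, adjusted p of 0.05), beside 5.95% of all 11891 genes called in either direction (305 and 402). Prkaca, the alpha catalytic subunit of protein kinase A, was at 63.1 and 30.7 CPM (2.05-fold, adjusted p = 0.00376, Fisher's exact test). Prkar1a, a regulatory subunit, was at 697 and 882 CPM (adjusted p = 5.05e-06, Fisher's exact test), and Gnas, the stimulatory G protein, at 488 and 599 CPM (adjusted p = 0.00346, Fisher's exact test). With the edgeR exact test, which adds the spread between the libraries, 0 of 43 passed and 2 had an unadjusted p under 0.05. That spread was estimated from the same libraries, so differences between them enter it, and the test cannot decide whether these genes differ. The median log2 ratio of the 43 genes was -0.06, and that of all genes tested was -0.05.

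Of the other adenylyl cyclases 0 of 3 tested passed, and Adcy9 (18.2 CPM), Adcy3 (13.3) and Adcy8 (8.89) were highest, all below Adcy5. Of the guanylyl cyclases 0 of 4 passed, led by the subunits of the nitric oxide receptor Gucy1b1 (35.6 CPM) and Gucy1a1 (31.2), with Gucy2g at 6.69. Of the other phosphodiesterases 0 of 7 passed, and Pde6d (59.8 CPM), a prenyl-binding protein named as a subunit, Pde4a (45.5) and Pde8b (20.4) were highest. Pde4a was at 34.6 and 56.4 CPM by library and Pde4b at 42.1 and 32.9, so their order differed between the libraries. Of the effectors 2 of 12 passed Fisher's test, beside 5.95% of all genes, and none the edgeR test, and Prkar1a, Prkar1b (431 CPM) and Rapgef4 (206), a cyclic AMP-activated exchange factor, were highest. Of the G proteins, cyclase-associated proteins and anchors 1 of 17 passed, led by Gnas (543 CPM), the kinase inhibitor Pkig (190) and Cap2 (175).

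**Figure D5:**
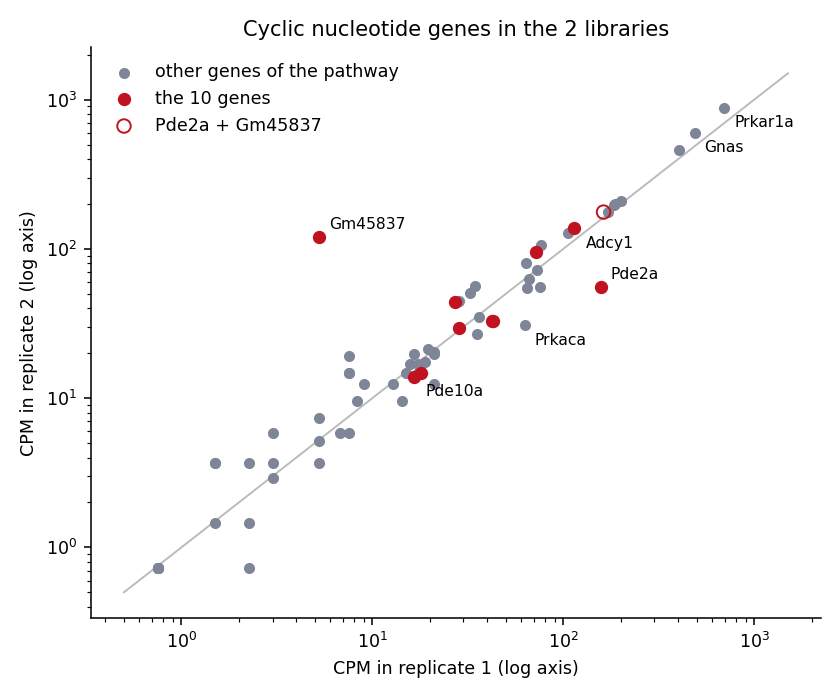
CPM in replicate 1 (x axis) and replicate 2 (y axis), both on log axes, for the 10 genes (red), the joined Pde2a locus (open circle) and the 56 other pathway genes with reads in both libraries (grey). The line marks equal levels: Gm45837 (5.26 and 121 CPM) lies farthest above it and Pde2a (157 and 55.6 CPM) and Prkaca (63.1 and 30.7 CPM) below.

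The tissue label was checked on marker lists. Hippocampal genes were present (Calb1 363 and C1ql2 249 CPM for dentate granule cells, Mpped1 111 and Wfs1 91.4 for CA1). Choroid plexus genes moved with the library: 7 of 7 tested were higher in replicate 1, and their sum was 14117 and 385 CPM (Ttr 11964 and 78.3, Enpp2 1606 and 223), with Kcne2 and Aqp1 at 0 in replicate 2. Oligodendrocyte genes summed to 5082 and 6846 CPM, with 3 of 5 higher in replicate 2. Striatal genes, of interest for Adcy5, Pde1b and Pde10a, summed to 177 and 194 CPM with 0 of 6 passing. Penk (71.8 CPM) and Ppp1r1b (71.2) were the highest of them, whereas Drd2 and Adora2a had 1 or 2 reads in each library. The other lists passed as follows: 1 of 5 for dentate granule cells, 1 of 3 for isocortex, 2 of 4 for astrocytes, 1 of 3 for endothelium, and none for CA1, CA2, CA3, GABAergic cells and microglia. Their part in the levels of the cyclases and phosphodiesterases was not tested, and in tissue RNA fewer cells of a type and less RNA per cell cannot be told apart.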

How the data were processed

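The values are whole-number counts of long reads for every transcript model, deposited by the authors. The models come from TALON, per the file headers, and build mm10 and annotation GENCODE M21 are per the deposited description files. The aligner, the TALON version, the platform and the strand setting were not stated. Members and gene lists were chosen with earlier results of these data known. Gene counts summed all model classes, and CPM used all library reads. Shares have exact Clopper-Pearson 95% intervals, which cover counting error only, as no molecular identifiers are described. Two-sided Fisher's exact tests (scipy 1.17.1) ran over all genes with at least 10 reads, or 20 in each library for shares, with Benjamini-Hochberg adjustment at 0.05. They were tried on simulated data that held counting error only, so the trial does not cover further spread between libraries. edgeR 4.0.16 (exact test, TMM) and DESeq2 1.42.0 (size factors) served as alternatives. Chains were matched by strand, chromosome and introns. Genes named were the members, the 3 highest and all called genes of each pathway list, and the 2 highest of marker lists that a result touches. Models named were the 3 of most reads and unannotated chains that had 2 reads or more in both libraries, and others were named after their values were seen. Promoters are RefSeq's (GRCm38.p6), and coding bases are GENCODE's.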

Additional observations from a re-analysis of the deposited data

How the results depend on the processing

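No paired analysis was possible because both libraries belong to 1 group. The 707 genes called between the libraries became 659 with TMM sizes, 714 with DESeq2 size factors and 49 with the edgeR exact test, whose dispersion comes from the same libraries. The 3 pathway genes called became 5 without genomic and incomplete reads (Gnas and Prkar1a remained, Prkaca fell under the minimum of 10 reads) and 0 with the edgeR exact test. The summed level of the 10 genes, 550 CPM, was 74.5 CPM without genomic and incomplete reads (Adcy1 then at 0) and 325 CPM without single-exon models, and 523 to 577 CPM with either library left out. Their single-exon share was then 40.7% to 41.2%. Genes called for the single-exon share rose from 99 to 424 without the genomic class, when Adcy5 (40.5% and 0%) and Pde1a (0% and 18.0%) passed. Genes called for the leading model fell from 200 to 29 without single-exon models and to 7 with annotated models alone. Without single-exon models another model led, so the sign of the difference changed: for Pde2a it was the chain of 30 exons, all named Gm45837 in replicate 2 (31.6 percentage points, adjusted p = 0.00234, Fisher's exact test), and for Adcy5 the chain of 21 exons (-6.29, adjusted p = 1.000). Joining Pde2a with Gm45837, tried after seeing the data, reversed the single-exon difference of Pde2a to 1.41 points. All 80 settings of the start and end windows stayed within their intervals. Deposited boundaries lay mostly exactly on annotated ones (starts of 231 and ends of 215 among 242 spliced models without a complete match). The width of the window could therefore change little, and nothing is concluded from these settings. Depth limits Pde4d, Pde10a and Adcy5, with 19 to 40 reads a library.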

Other observations

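On the opposite strand of the genes there were 47 reads in replicate 1 and 17 in replicate 2, of which 3 were spliced. Adcy1 had 19 and 9 of them and Pde4d 11 and 2, and none overlapped the Pde2a locus. The only other annotated gene with reads on the same strand was Arap1, at the Pde2a locus, with 6 and 8 reads.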
